A study of Bos taurus with 8 samples.

Results

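The genes described here are 3 Notch receptors (NOTCH1, NOTCH2, NOTCH3), 3 of their ligands (JAG1, JAG2, DLL4) and 4 transcriptional repressors of the HES and HEY families (HES1, HES2, HES4, HEY1). They were taken by symbol from a table of 33132 genes, and all 10 were found and passed the filter on low counts. The libraries were made from rumen, the fermentation chamber of the cattle forestomach, which is lined by a stratified squamous epithelium over connective tissue and smooth muscle. One group was 4 adult steers, which are castrated males, and the other was 4 newborn male calves. All animals were of angus cross breed, with 1 library per animal and no treatment named. Age and castration differ between the groups together and cannot be told apart, and the labels give no exact age, diet or batch. Postnatal rumen growth, and the pathways and regulators behind it, is the stated subject of the series.

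Notch signalling passes between touching cells. A ligand of the Jagged or Delta-like family on 1 cell binds a Notch receptor on its neighbour, the receptor is cut by an ADAM protease and then by gamma-secretase, and its inner part enters the nucleus, where it joins the DNA-binding protein RBPJ and Mastermind coactivators. Several HES and HEY genes, HES1 among them, are the best known targets of that complex and encode repressors that hold back differentiation genes. In stratified epithelia such as skin, NOTCH1 and NOTCH2 act in the step from basal to suprabasal cells, in blood vessels DLL4 is made by endothelium, and NOTCH3 is the main receptor of mural cells (pericytes and vascular smooth muscle).

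Library totals ran from 42322022 to 54449684 counts. The first principal component of log2 CPM held 53.7% of the variance and separated the 4 steers from the 4 calves. CPM, the unit of level used throughout, are counts scaled to a common library size with TMM factors. The keratin KRT5, which marks basal cells of squamous epithelia, averaged 3491 ± 604 CPM in steers and 3161 ± 213 CPM in calves (SD, n = 4 each), so squamous epithelium was present in both groups. A gene was called higher or lower in steers where its Benjamini-Hochberg adjusted p in edgeR's quasi-likelihood test, taken over all genes tested, was under 0.05. Summed markers of smooth muscle, led by DES, held 10940 to 109300 CPM in steers and 6376 to 18590 CPM in calves. Of 9 tested markers, 4 were higher and 1, ACTA2, was lower. The sum in steer 4, 10940 CPM, lay inside the calf range. Blood endothelial markers, led by VWF, held 230.5 to 326.1 CPM in steers and 326.1 to 647.5 CPM in calves, with 4 of 12 lower and none higher. Pericyte and mural markers, led by CSPG4, held 321.5 to 702.1 CPM in steers and 289.7 to 416.9 CPM in calves, and none of 8 was called. Basal keratinocyte markers, led by KRT15, held 8391 to 15990 CPM in steers and 11700 to 17100 CPM in calves, with 2 of 8 higher and 1 lower. Suprabasal squamous markers, led by KRT4, held 232.6 to 1287 CPM in steers and 37050 to 89790 CPM in calves, with 5 of 7 lower. DSG1 of that list had no count in any library. A further gene, LOC101904557, shares 100% of the span over which DSG1 was counted, so absence of DSG1 RNA cannot be read from this. Fibroblast markers (led by COL3A1) held 593.9 to 1400 CPM in steers and 1682 to 4854 CPM in calves, with 4 of 8 lower and none higher. Leukocyte markers (led by CD14) held 35.33 to 93.38 CPM in steers and 50.96 to 103.1 CPM in calves, with 5 of 7 tested markers higher and 1, CD14 itself, lower, so that the sum does not follow most of the list (median log2 change 2.65). Neuron and glia markers (led by S100B) held 15.43 to 26.26 CPM in steers and 41.75 to 55.44 CPM in calves, with 4 of 8 lower and none higher. Lymphatic endothelial markers (led by LYVE1) held 2.311 to 7.452 CPM in steers and 5.474 to 14.65 CPM in calves, and none of 4 was called.

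Of the 10 genes, 4 were lower in steers (NOTCH3, JAG1, HES1, HES4) and 1 was higher (HES2) at that threshold. Over all 16326 genes tested, 16.9% were called, 9.16% as lower and 7.7% as higher. Steer and calf CPM were fully apart for 6 of the 10 genes. In 5 of them the steers lay below the calves, and in 1, HES2, they lay above. Over all tested genes they were apart for 23.3%, with steers below for 12.8% and above for 10.5%. The median log2 change of the 10 genes was -0.88, against 0.04 for all tested genes. RNA was taken from whole tissue, so fewer cells of a type and less RNA per cell cannot be told apart in any of these values. The genes were picked as a pathway, with earlier results of these data known, and not drawn at random. Their count and median are a description of the list.

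**Figure D1:**
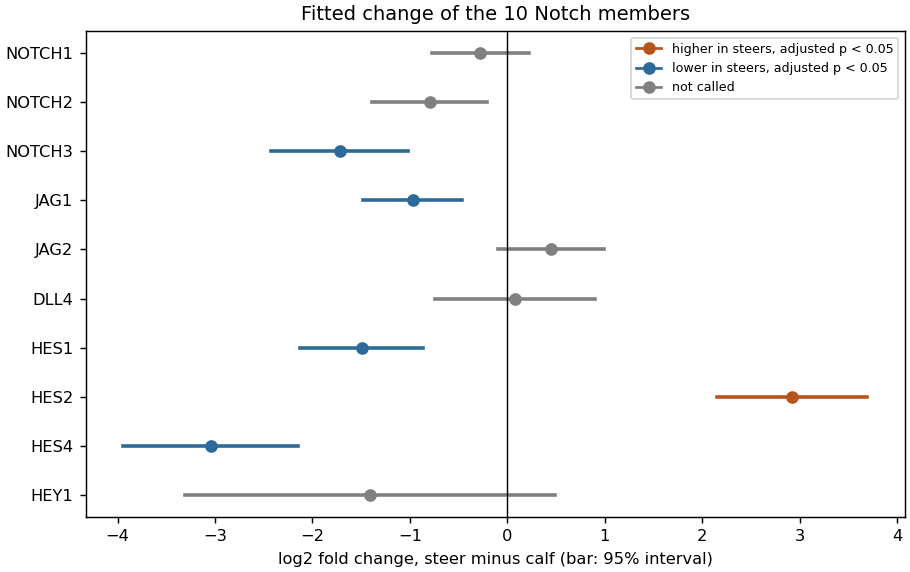
Fitted log2 fold change (steer minus calf, horizontal axis) of the 10 genes, with points for the fitted value, bars for its 95% interval, and colour for the call. HES2, at 2.92, is the one gene called higher, JAG2 and DLL4 lie right of 0 without a call, and HES4 lies farthest to the negative side at -3.05.

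Among the receptors, the only one called was NOTCH3 (chromosome 7, 7910713 to 7950469, plus strand). Positions are those of the deposited table, for which the sources used here name no genome build. NOTCH3 was at 26.65, 22.83, 49.17 and 59.51 CPM in steers 1 to 4, against 126.6, 152.5, 129.8 and 112.2 CPM in calves 1 to 4. All steers lay well below all calves, and the calves were close to each other while the steers spread more, with a coefficient of variation of 44.7% in steers and 12.8% in calves. NOTCH3 averaged 39.5 ± 17.7 CPM in steers and 130 ± 17 CPM in calves (SD, n = 4 each), a log2 change of -1.72 ± 0.32 (SE, adjusted p = 0.00604). Among markers of the cells NOTCH3 is best known from, none of 8 mural markers was called. Those markers did not move together, with fitted log2 changes from -1.54 (ANGPT1) to 1.11 (ABCC9). Of 9 tested smooth muscle markers, 4 were higher in steers (MYH11, CNN1, DES and LMOD1). The 1 lower marker was ACTA2, at 76.9 CPM in steers and 1314 CPM in calves (log2 change -4.10, adjusted p = 0.000121). The part of these cells in the change was not tested beyond covariate fits. Suprabasal squamous markers also differed between the groups, with 5 of 7 lower in steers, and the part of that layer in NOTCH3 was not tested. With a covariate for the smooth muscle marker mean NOTCH3 was at -1.43 (adjusted p = 0.0288), and with the endothelial mean it was at -0.97 (adjusted p = 0.172). The endothelial mean (log2 CPM) was 3.33 to 4.14 in steers and 4.27 to 5.03 in calves. It nearly follows the groups, so fits with it, here and below, cannot cleanly separate endothelial content from group. Over its 19 alternatives the adjusted p of NOTCH3 ran from 3.36e-06 to 0.172.

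NOTCH1 (chromosome 11, 103934022 to 103981092, minus strand), the receptor with the most counts here, was at 163.8, 116.3, 206.3 and 193.6 CPM in steers 1 to 4, against 193.8, 239.2, 192.8 and 198.5 CPM in calves 1 to 4. The groups overlapped, with 1 steer above 3 of the calves, and calf 2 stood above the other calves. NOTCH1 averaged 170 ± 40 CPM in steers and 206 ± 22 CPM in calves. Its log2 change was -0.28 ± 0.22 (SE, adjusted p = 0.438) with a 95% interval of -0.78 to 0.22, and the sign turned with the endothelial covariate (0.19). A drop of NOTCH1 in steers as large as that fitted for NOTCH3 lies outside this interval.

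NOTCH2 (chromosome 3, 23196491 to 23371807, plus strand) was at 14.25, 16.73, 23.69 and 29.86 CPM in steers 1 to 4, against 33.45, 44.30, 40.42 and 28.78 CPM in calves 1 to 4. Steer 4 alone reached into the calf range, just above calf 4. The log2 change of NOTCH2 was -0.80 ± 0.27 (SE, 95% interval -1.39 to -0.21) with an unadjusted p of 0.0134 and an adjusted p of 0.0673, so it was not called. NOTCH2 passed the threshold without steer 4 (-1.01, adjusted p = 0.0222), without calf 2 and steer 4 together (-0.91, adjusted p = 0.0407) and with DESeq2 (-0.80, adjusted p = 0.0257). The other 16 of 19 alternatives did not call it. Among them were the smooth muscle covariate (-0.56, adjusted p = 0.259) and the endothelial covariate (-0.26, adjusted p = 0.69). The steer without which NOTCH2 passed is the one whose smooth muscle markers lay in the calf range. Whether that bears on the NOTCH2 call was not tested beyond the covariate fits. A further gene, LOC112445961, shares 1.8% of the span over which NOTCH2 was counted.

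**Figure D2:**
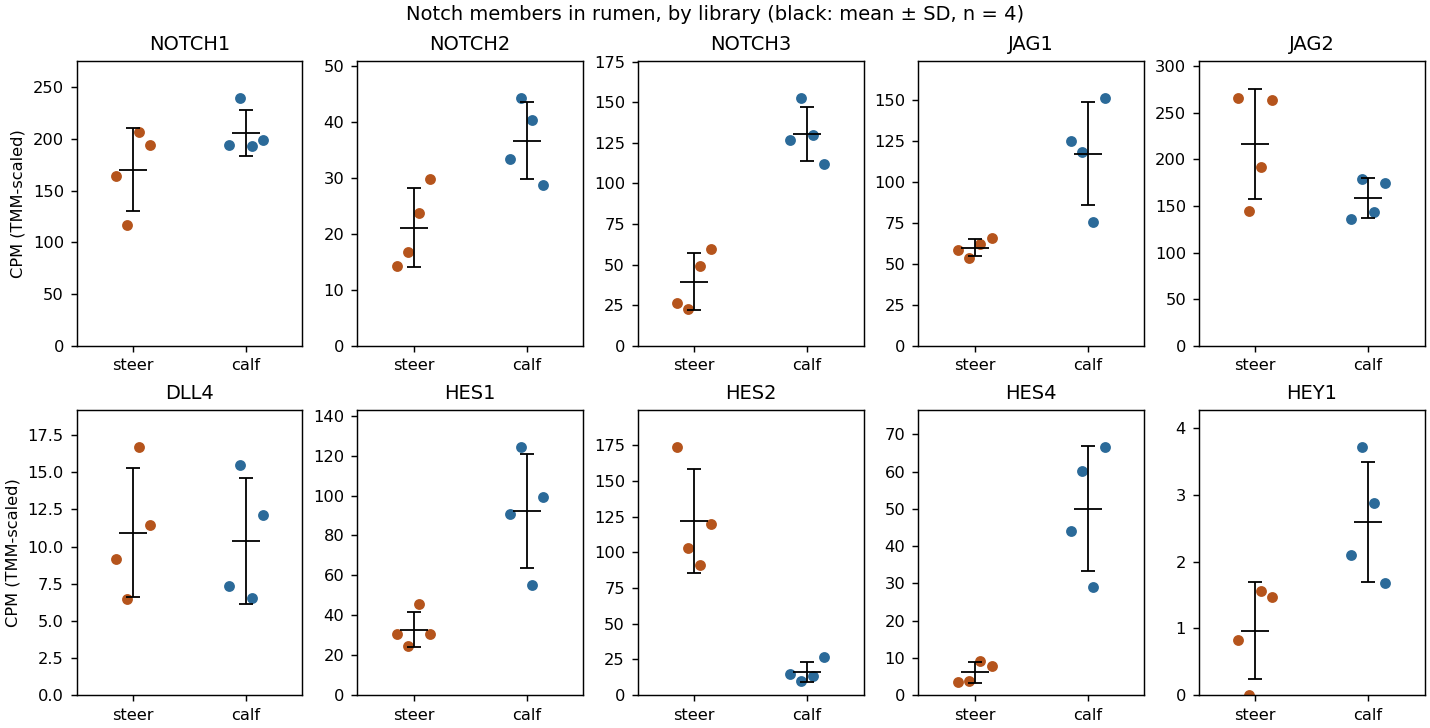
CPM of each of the 10 genes in every library, with steers on the left and calves on the right of each panel and a black mean with SD (n = 4). NOTCH3, JAG1, HES1, HES4 and HEY1 have all steers below all calves, HES2 has all steers above, and the other 4 panels overlap.

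The ligands did not move together. JAG1 (chromosome 13, 3939809 to 3984202, minus strand), the Jagged ligand broadly made in epithelium, vessels and stroma, was at 58.25, 53.39, 62.25 and 65.58 CPM in steers 1 to 4, against 124.8, 118.3, 75.44 and 151.2 CPM in calves 1 to 4. The steers lay within a narrow band below all calves, with calf 3 the nearest. JAG1 averaged 59.9 ± 5.3 CPM in steers and 117 ± 31 CPM in calves, a log2 change of -0.97 ± 0.23 (SE, adjusted p = 0.0175). The call was the least stable of the 5. Among other fits it ended without calf 1 (-0.93, adjusted p = 0.0543), without calf 4 (-0.82, adjusted p = 0.0528) and with the endothelial covariate (-0.61, adjusted p = 0.343), while its direction held in all 19 alternatives and its adjusted p ran from 0.00112 to 0.343. A further gene, LOC107133024, shares 1.99% of its counted span.

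JAG2 (chromosome 21, 69505928 to 69527005, minus strand), the second Jagged ligand, found in basal keratinocytes of skin, was at 265.6, 144.4, 191.8 and 264.2 CPM in steers 1 to 4, against 136.0, 179.5, 143.6 and 174.9 CPM in calves 1 to 4. Of the 4 steers, 3 lay above every calf and steer 2 lay among the calves. JAG2 averaged 217 ± 59 CPM in steers and 159 ± 22 CPM in calves. Its log2 change was 0.45 ± 0.24 (SE, adjusted p = 0.237), with a 95% interval of -0.09 to 0.99. It was called in none of 19 alternatives (0.33 to 0.71).

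DLL4 (chromosome 10, 36464678 to 36473753, plus strand), the endothelial Delta-like ligand, was at 9.150, 6.458, 16.69 and 11.47 CPM in steers 1 to 4, against 7.314, 15.52, 6.566 and 12.13 CPM in calves 1 to 4. The groups covered the same range. DLL4 averaged 10.9 ± 4.3 CPM in steers and 10.4 ± 4.2 CPM in calves, a log2 change of 0.08 ± 0.37 (SE, adjusted p = 0.916) with a 95% interval of -0.74 to 0.89. The sign is not settled, since it turned in 5 of 19 alternatives. Blood endothelial markers had a median log2 change of -0.93 in the same libraries, and with their mean as a covariate DLL4 was at 1.30 (adjusted p = 0.0954). That mean nearly follows the groups, which limits what this fit can separate.

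The largest changes of the 10 were those of HES2 and HES4, in opposite directions. HES2 (chromosome 16, 46950068 to 46952627, plus strand), a basic helix-loop-helix repressor of the HES family, was at 173.7, 103.2, 91.34 and 120.1 CPM in steers 1 to 4, against 14.72, 10.07, 13.13 and 26.39 CPM in calves 1 to 4. Every steer held more than 3 times the CPM of the highest calf. HES2 averaged 122 ± 36 CPM in steers and 16.1 ± 7.1 CPM in calves, a 7.59-fold rise (log2 change 2.92 ± 0.34, SE, adjusted p = 0.000717). By p it ranked 177 of the 16326 genes. It kept its call in all 19 alternatives, at log2 changes of 2.58 to 3.28, with the highest adjusted p (0.0476) under the endothelial covariate.

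HES4 (chromosome 16, 51474108 to 51480572, plus strand), a relative of HES1, was at 3.450, 3.786, 9.127 and 7.785 CPM in steers 1 to 4, against 44.16, 60.13, 29.12 and 66.55 CPM in calves 1 to 4. No steer came near the calf range. HES4 averaged 6.04 ± 2.85 CPM in steers and 49.99 ± 16.80 CPM in calves, 8.26-fold lower in steers (log2 change -3.05 ± 0.40, SE, adjusted p = 0.00124). It was called in all 19 alternatives, at -3.31 to -1.79, the smallest change being that with the endothelial covariate (adjusted p = 0.0282).

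HES1 (chromosome 1, 73362774 to 73365254, minus strand), the classical Notch target, was at 30.45, 24.61, 45.37 and 30.63 CPM in steers 1 to 4, against 90.84, 124.2, 55.26 and 99.30 CPM in calves 1 to 4. Steer 3 and calf 3 came closest, and the groups did not overlap. HES1 averaged 32.8 ± 8.9 CPM in steers and 92.4 ± 28.5 CPM in calves (log2 change -1.50 ± 0.28, SE, adjusted p = 0.00700). It was lower in all 19 alternatives, and the call ended with the endothelial covariate alone (-0.72, adjusted p = 0.275). The suprabasal squamous markers also differed between the groups, with 5 of 7 lower in steers, while HES1 and HES4 fell and HES2 rose. The part of that cell layer in the HES values was not tested.

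HEY1 (chromosome 14, 42969171 to 42972066, minus strand), a HES-related repressor of endothelium and mesenchyme, was the scarcest of the 10. It had 33, 0, 84 and 84 counts in steers 1 to 4, against 90, 222, 137 and 80 counts in calves 1 to 4. Scaled to library size this was 0.825, 0, 1.565 and 1.473 CPM in steers, against 2.096, 3.714, 2.883 and 1.673 CPM in calves, so that all steers lay below all calves but by a small margin. Each mate adds its own count, so the count of 0 in steer 2 allows up to 0.167 CPM, from a floor of 3 pairs or 6 counts, which covers counting error only. HEY1 averaged 0.966 ± 0.723 CPM in steers and 2.59 ± 0.90 CPM in calves. Its log2 change was -1.41 ± 0.85 (SE, adjusted p = 0.291), with a 95% interval of -3.30 to 0.48, and no alternative called it.

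The make-up of each class shifted with these changes. In every steer HES2 held most of the counts of the 4 HES and HEY genes, 62.0% to 83.3%, against 5.08% to 13.6% in calves. HES1 held 14.6% to 30.8% in steers and 51.2% to 62.7% in calves, and HES4 held 1.66% to 6.19% in steers and 29.0% to 34.3% in calves. Among the receptors, NOTCH1 held 68.4% to 80.0% of counts in steers and 53.1% to 58.5% in calves, and NOTCH3 held 13% to 21% in steers and 33.1% to 35.8% in calves. NOTCH2 held 6.96% to 10.7% in steers and 8.48% to 11.1% in calves. Among the ligands, JAG2 held 70.7% to 79.8% in steers and 50.7% to 63.7% in calves, and JAG1 held 17.5% to 26.1% in steers and 33.4% to 46.6% in calves. A share rises when another member falls, and the shares are of raw counts, so only their difference between groups can be read.

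**Figure D3:**
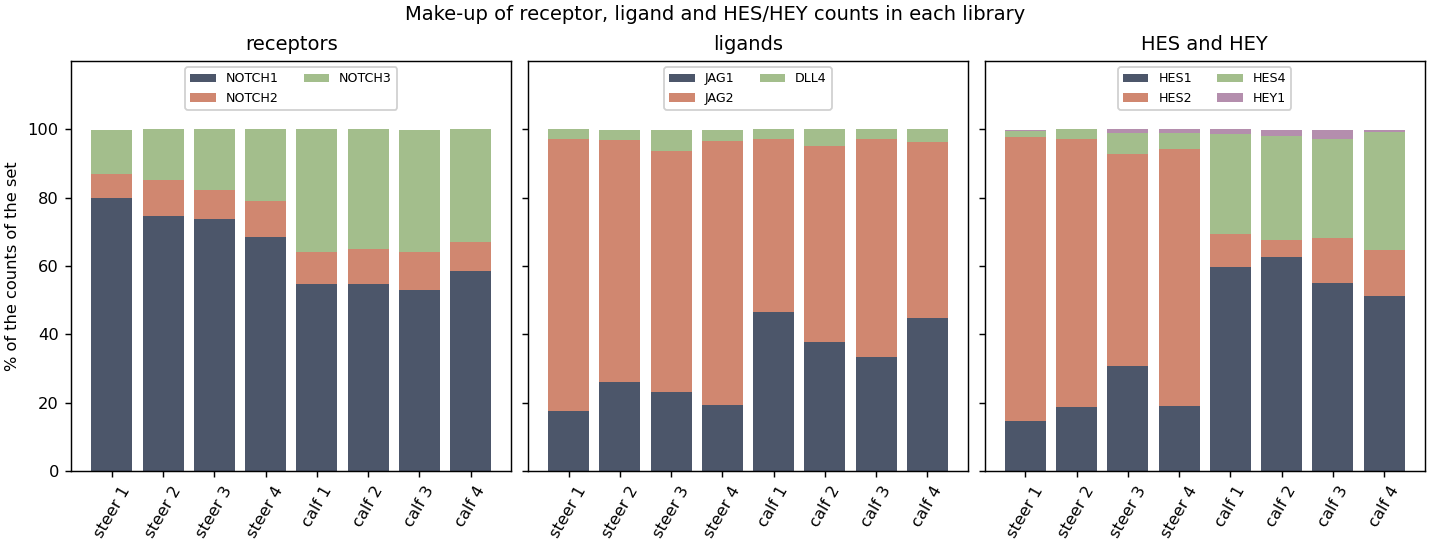
Percent of the summed counts of each class (vertical axis) held by each gene, as stacked bars for steers 1 to 4 and then calves 1 to 4. HES2 takes 62.0% to 83.3% of the HES and HEY bar in steers and 5.08% to 13.6% in calves.

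Ratios of counts within a library do not depend on how libraries are scaled to each other, and 5 of them were put to an exact permutation test (two-sided, 4 against 4 libraries), whose smallest possible p is 0.0286. The log2 ratio of NOTCH3 to NOTCH1 averaged -2.19 ± 0.39 in steers and -0.66 ± 0.11 in calves (SD, n = 4 each, difference -1.52, exact p = 0.0286). The log2 ratio of JAG2 to JAG1 averaged 1.82 ± 0.35 in steers and 0.47 ± 0.37 in calves (difference 1.35, exact p = 0.0286). In both the groups were fully apart. The log2 ratio of JAG1 to DLL4 averaged 2.53 ± 0.48 in steers and 3.55 ± 0.48 in calves (difference -1.01, exact p = 0.0571). The log2 ratio of NOTCH1 to NOTCH2 averaged 3.03 ± 0.37 in steers and 2.501 ± 0.222 in calves (difference 0.53, exact p = 0.0571). The log2 ratio of HEY1 to HES1 differed by -1.14 (exact p = 0.800), with steer 2 far below the others because it had no HEY1 count. Adjusted over the 5 ratios, the exact p was 0.0714 for the first 4 named and 0.800 for HEY1 to HES1, so none passed 0.05 after adjustment.

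**Figure D4:**
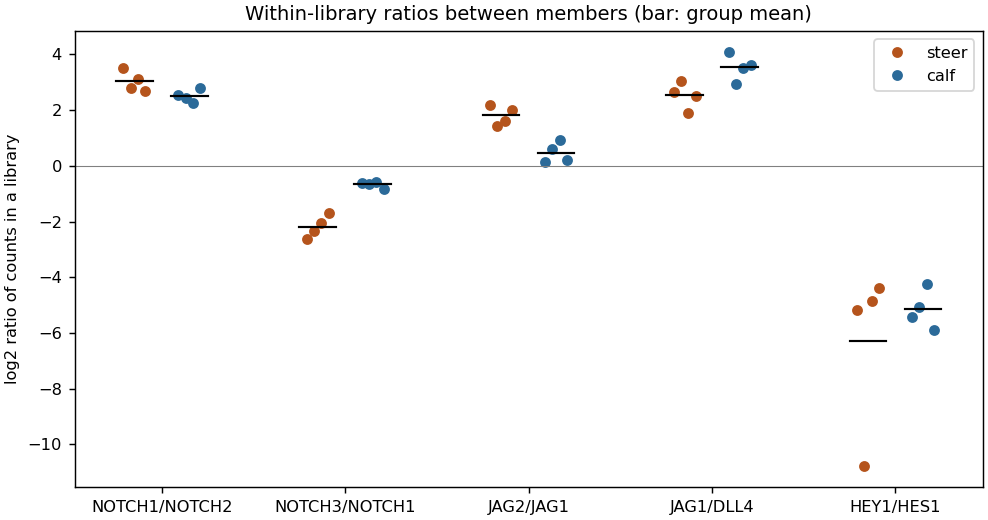
Log2 ratio of counts (vertical axis) for 5 pairs of genes in each library, with steers left of calves and a bar at each group mean. The NOTCH3 to NOTCH1 ratio lies lower in all steers and the JAG2 to JAG1 ratio lies higher.

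To set levels of different genes side by side, CPM were divided by the counted span in kilobases, which holds introns, so that genes with long introns come out low. On that scale (CPM per kb of span, group means) the highest of the 10 in steers was HES2 at 47.7, followed by HES1 at 13.2 and JAG2 at 10.3, whose values overlapped (9.92 to 18.3 for HES1 and 6.85 to 12.6 for JAG2), so that their order in steers is not settled. In calves the highest was HES1 at 37.2, followed by HES4 at 7.73, JAG2 at 7.52 and HES2 at 6.28. In calves the values of HES4 (4.50 to 10.3), JAG2 (6.45 to 8.51) and HES2 (3.93 to 10.3 CPM per kb) overlapped, and their order there is not settled. NOTCH1 was at 3.61 in steers and 4.38 CPM per kb in calves, and NOTCH3 at 0.995 in steers and 3.28 CPM per kb in calves. NOTCH2, counted over the longest span, 175317 bases, had the lowest group mean on this scale, 0.121 CPM per kb in steers and 0.21 in calves.

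The remaining pathway was read from a list of 53 further genes, of which HES3 did not pass the filter on low counts. Of 52 tested, 8 were lower in steers and 1 was higher, 17.3% called against 16.9% of all genes, so that the list as a whole was called about as often as the background. Its median log2 change was -0.20, against 0.04 for all tested genes. For 10 of the 52 (19.2%) the groups were apart, with steers below in 9, against 23.3% apart and 12.8% with steers below over all tested genes. RBPJ, the DNA-binding partner of cleaved Notch, was at 24.45 to 41.89 CPM in steers and 17.91 to 33.99 CPM in calves (log2 change 0.48 ± 0.26, adjusted p = 0.246). The endothelial receptor NOTCH4 was at 11.53 to 15.05 CPM in steers and 11.76 to 27.02 CPM in calves (-0.35 ± 0.28, adjusted p = 0.429), and the ligand DLL1 at 21.07 to 57.44 CPM in steers and 27.32 to 44.35 CPM in calves (0.13 ± 0.31, adjusted p = 0.817). The ADAM proteases ADAM10 and ADAM17 and the gamma-secretase genes PSEN2, NCSTN, APH1A, APH1B and PSENEN went without a call. CA12 shares 50.77% of the counted span of APH1B, and U2AF1L4 shares 22.42% of that of PSENEN, so the values of APH1B and PSENEN are less certain.

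The steepest change on the list was that of DLK1, an imprinted Delta-like protein that lacks the receptor-binding domain of true Notch ligands. It was at 0.05, 0.2227, 0.3725 and 0.2455 CPM in steers 1 to 4, against 19.43, 125.2, 33.46 and 30.33 CPM in calves 1 to 4 (log2 change -7.82 ± 0.81, SE, adjusted p = 0.000384). The calf mean leaned on calf 2, and without that library the log2 change was -6.91. Its relative DLK2 fell as well, to 8.129 to 18.12 CPM in steers, against 37.46 to 88.83 CPM in calves (-2.18 ± 0.35, adjusted p = 0.00323). The one gene that rose was DLL3, a Delta-like protein that does not activate receptors on neighbouring cells, with 1.080 to 4.550 CPM in steers and 0.2928 to 0.6988 CPM in calves (2.41 ± 0.58, adjusted p = 0.0201). Its call ended in 6 of 19 alternatives.

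The other called genes were lower in steers. NEURL1B, a ubiquitin ligase for Notch ligands, was at 4.250 to 10.54 CPM in steers and 22.00 to 45.47 CPM in calves (-2.26 ± 0.33, adjusted p = 0.00212). LFNG, a Fringe enzyme that adds sugars to Notch receptors, was at 15.31 to 34.75 CPM in steers and 33.31 to 61.87 CPM in calves (-1.04 ± 0.29, adjusted p = 0.0344). The groups overlapped for LFNG. The HES-related target HEYL was at 3.786 to 6.258 CPM in steers and 6.902 to 23.24 CPM in calves (-1.62 ± 0.39, adjusted p = 0.0203). HES7, known from the segmentation clock of mouse embryos, was at 0.03507 to 0.5215 CPM in steers and 0.968 to 3.054 CPM in calves (-2.53 ± 0.72, adjusted p = 0.0389). The acetyltransferase KAT2A was at 44.29 to 74.55 CPM in steers and 82.66 to 106.1 CPM in calves (-0.69 ± 0.20, adjusted p = 0.0433). Most of these calls were thin. NEURL1B and DLK2 lost theirs with the endothelial covariate alone and DLK1 kept its call throughout, whereas of 8 fits with 1 library left out HEYL was called in 5, LFNG in 3, HES7 in 2 and KAT2A in 1. The number of genes on this list called lower, 8 in all, was 3 without calf 4, 4 without calf 2, steer 2 or steer 3, and 5 without calf 1 or steer 1.

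**Figure D5:**
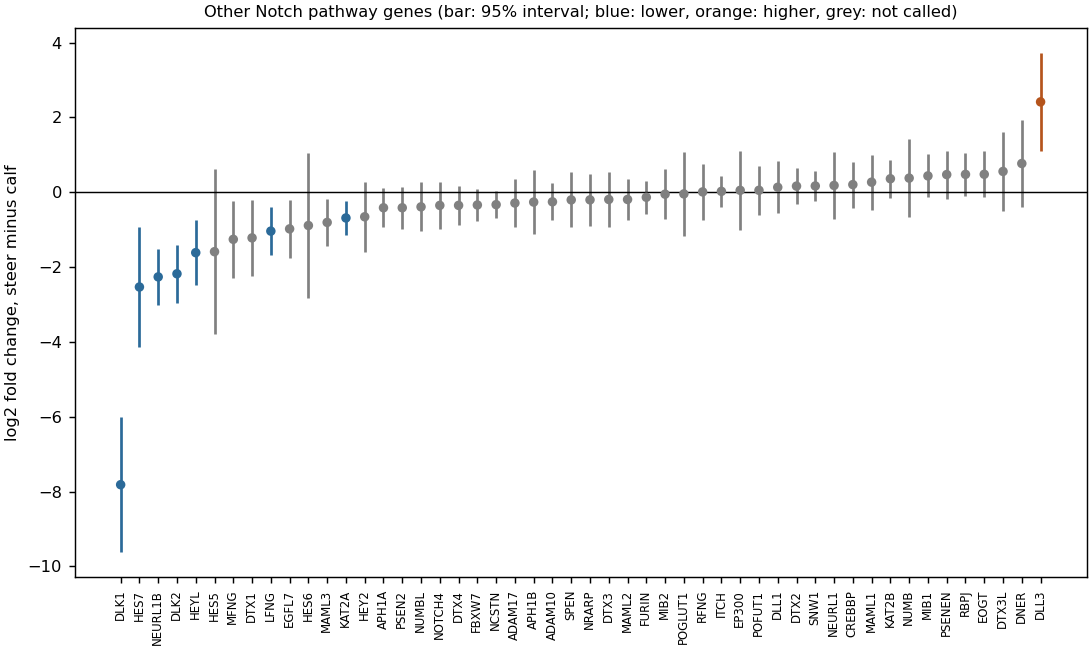
Fitted log2 fold change (steer minus calf, vertical axis) of 50 of the tested further pathway genes in rising order, with bars for the 95% interval and colour for the call. DLK1 lies far below the rest at -7.82, DLL3 is the one gene called higher at 2.41, and most of the others lie near 0.

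The gene with the smallest p of the 10 was HES2, and its profile over the 8 libraries was set beside those of 8989 tested genes with a mean of at least 10 CPM. After each log2 CPM profile was centred on its own mean, the nearest by root mean square difference were PCK2, the mitochondrial form of phosphoenolpyruvate carboxykinase (0.382 log2 units), MGST3, a microsomal glutathione transferase (0.411), and SLC12A7, a potassium-chloride cotransporter (0.415). PCK2 averaged 92.1 CPM in steers and 15.3 CPM in calves, MGST3 741 CPM in steers and 156 CPM in calves, and SLC12A7 331 CPM in steers and 47.3 CPM in calves. Their log2 changes were 2.59 for PCK2, 2.24 for MGST3 and 2.81 for SLC12A7, against 2.92 for HES2. With 8 libraries in 2 groups the step between groups makes up most of each profile. A similar change therefore follows from picking genes by nearness to HES2.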

How the data were processed

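The values are raw counts of reads per gene, as deposited. They were made with featureCounts 2.0.2, per the file headers, over transcript spans grouped by gene name, so intronic reads are included, with no strand option. Paired mode was set without counting pairs, so mates count singly (86.9% to 89.0% of counts from 1 to 10 were even). The submitters' processing notes name Trimmomatic 0.39, STAR 2.7.11a and DESeq2 1.42.0. No genome build is named in the sources used here. The Length column, the counted span, scaled levels between genes. Chromosome numbers come from RefSeq symbols of the ARS-UCD2.0 table.

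The test of steer against calf was run in edgeR 4.0.16 under R 4.3.3: filterByExpr, TMM, robust quasi-likelihood F test, Benjamini-Hochberg over 16326 genes. Adjusted p-values are from edgeR unless another tool is named, and SE was taken from the log2 change and its F statistic (change over root F). The procedure was tested on simulated data. Alternatives used DESeq2 1.42.0, limma 3.58.1 (voom), other scalings and filters, covariates, a replicate block and left-out libraries. No library repeated another (smallest chi-square per degree of freedom 92.96). P-values measure the spread between animals.

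The genes and lists were chosen with earlier results of these data known. Named were all 10 genes, every called gene of the wider Notch list (some genes of that list are not reported here), NOTCH4, DLL1 and RBPJ, the leading gene of each marker list and the 3 profiles nearest to the member with the smallest p.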

Additional observations from a re-analysis of the deposited data

Results flagged for a closer look

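Within each group of 4 libraries, a library was looked for that stood far from the other 3, over 60 groups (the 10 genes, 11 further pathway genes and 9 marker sums in both age groups). Chance alone sets apart about 1 in 20 such groups, and 4 were found. Calf 2 had 239.2 CPM of NOTCH1, where the other calves had 192.8 to 198.5 CPM. Calf 2 also had 125.2 CPM of DLK1, against 19.43 to 33.46 CPM in the other calves, and a summed 416.9 CPM of the pericyte and mural markers, against 289.7 to 298.3 CPM in the other calves. Steer 2 had 11.53 CPM of NOTCH4, below the 14.59 to 15.05 CPM of the other steers.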

How the results depend on the processing

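HES2 and HES4 kept direction and call in all 19 alternatives, and NOTCH3 and HES1 in all but the endothelial covariate. That covariate nearly follows the groups, and with it calls over all genes fell to 195 higher and 328 lower, those of the 10 genes to 1 lower and those of the further Notch genes to 0 higher and 1 lower. With it NOTCH3 (-0.97), JAG1 (-0.61) and HES1 (-0.72) lost their calls, NOTCH1 turned to 0.19 and NOTCH4 to 0.38. The sign of DLL4 turned with library size only (-0.02), with the smooth muscle covariate (-0.05) and with 1 library left out (-0.20 to 0.33). DLL1 turned to -0.36 with the smooth muscle covariate and ran from -0.13 (without steer 3) to 0.34 with 1 library left out. NOTCH2 was called with DESeq2 (-0.80), without steer 4 (-1.01) and without calf 2 and steer 4 together (-0.91). It was called in none of the other 16 alternatives, and was at -0.26 with the endothelial covariate. With 1 library left out, NOTCH2 ran from -1.01 to -0.64 and JAG1 from -1.14 to -0.82.

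Genes called higher numbered 835 with library size only (34.9% of calls, against 45.7%), 1944 with DESeq2 and 705 to 1473 with 1 library left out. Among further Notch genes, none was called higher with limma-voom or the smooth muscle covariate (0), 0 to 1 higher and 3 to 8 lower with 1 library left out, and 4 lower without calf 2 and steer 4 together. DLL3 was the gene concerned (adjusted p = 0.052 with limma-voom). The cause was not tested. Ratios moved little with 1 library left out, except HEY1 to HES1 (-1.78 to 0.36), and with a pseudocount of 1 or 5 (-0.89 and -0.29 for HEY1 to HES1).

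Replicate numbers did not pair the animals: same-numbered steers and calves correlated at -0.235 to 0.166, and no steer correlated best with the calf of its own number. With a replicate block 785 genes were called higher, 3 further Notch genes lower, and JAG1 was at -0.93 (adjusted p = 0.0533). Depth limits genes with few counts in steers, such as HEY1, HES7 and DLK1.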
